A study of Homo sapiens with 12 samples.

Results

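Interferon-stimulated genes encode the factors, sensors and effectors that a cell makes after it meets an interferon. The set described here holds 37 of them, from STAT2 and IRF9 to ISG15, MX1, the IFIT family and BST2, among the 31334 gene symbols on the arrays. Members were the rows of the deposited log2 signal table that carry a listed symbol. Where a symbol had several probes, the brightest (highest mean over the 12 arrays) stood for the gene. All 37 symbols were found, 26 with 1 probe and 11 with several. Of these genes, 28 were above background on all 12 arrays, 5 (DDX58, OAS2, OASL, SAMD9 and IFITM1) on some arrays, and 4 (RSAD2, TRIM22, IFI27 and IFI44L) on none. The labels mention no added interferon in any condition.

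RNA came from cultures labeled MDA-MB-231, an established line from a human breast carcinoma, and was read on Illumina HumanHT-12 arrays, 2 for each of 6 culture conditions. Cells at 90% confluence were grown in minimum essential medium with 10% fetal bovine serum (called MEM here), in Dulbecco's modified Eagle's medium with 10% fetal bovine serum (DMEM), in RPMI-1640 with 10% fetal bovine serum, in minimum essential medium with 10% horse serum (HS), or in minimum essential medium with 0.1% fetal bovine serum (0.1% FBS). The last condition was minimum essential medium with 10% fetal bovine serum at 50% confluence. The study asked how medium, serum and density alter expression, with MEM as the point of reference, and the labels do not say whether the 2 arrays of a condition came from separate cultures, so that p-values measure the spread between these arrays, which may be technical.

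Type I interferons bind the receptor chains IFNAR1 and IFNAR2, whose kinases JAK1 and TYK2 phosphorylate STAT2. With IRF9 it forms part of ISGF3, a complex that binds the interferon-stimulated response element in promoters of antiviral genes. Interferon gamma acts through the gamma-activated site and raises IRF1. Many of the same genes keep a basal level in cells that no interferon has reached.

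Values are log2 signals, which the authors had normalized between arrays by quantiles, so that 1 unit is a 2-fold change. As a measure of background, the level below which 95% of 463 olfactory receptor probes fell was taken for each array and lay between 6.90 and 6.99. Between 16685 and 20065 probes per array exceeded it. A gene was called where limma's moderated test, fitted to all 12 arrays and adjusted over all 47231 probes, gave an adjusted p under 0.05. Correlations across probes were 0.987 to 0.996 within a condition, 0.914 to 0.940 between the MEM arrays and the other 10, and 0.964 to 0.991 between the other conditions. The labeled cell type was checked with 8 genes that this line expresses strongly. All 8 were above background on both arrays in MEM and in RPMI-1640, 7 in HS, and 6 in DMEM, 0.1% FBS and at 50% confluence, with EGFR at background on both arrays of these 4 conditions. PLAU had a mean of 10.56 in MEM and of 6.93 to 7.02 elsewhere, and the keratin KRT8 of 10.04 in MEM and at most 6.89 elsewhere. Of the 9 luminal epithelium markers that include KRT8, 3 were above background on both arrays in MEM and 1 in each other condition. EPCAM had a mean of 7.24 in MEM and 6.67 to 6.92 elsewhere. KRT18 had 8.09 in MEM and 7.40 to 8.08 elsewhere, KRT19 6.87 and 6.65 to 7.03, and CDH1 was at background in every condition. A list of 13 melanocyte and neural crest markers, chosen to check for other cells, had a summed linear signal of 2611 to 2851 in MEM, 3776 to 3873 at 50% confluence, 4125 to 4209 in HS, 5529 to 5550 in RPMI-1640, 6762 to 7480 in DMEM and 10856 to 12856 in 0.1% FBS. From 7 to 9 of the 13 were above background on both arrays of a condition. SOX10 had means of 8.25 in MEM and 9.95 to 11.10 elsewhere, and DCT was at 12.28 in 0.1% FBS and 9.16 to 10.45 elsewhere, while TYRP1 and S100B were at background in every condition. In bulk RNA, a smaller share of cells with a transcript and less of it per cell cannot be told apart. The MEM arrays therefore stood apart from the other 10, and each result below is given with MEM and among the 5 other conditions.

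Promoters of the members share letters. No sequence was used to choose the members. They were listed for their response to interferon, however, so an excess of the response element is not independent of that choice. In the RefSeq promoter table (GRCh38.p14, 250 bases before to 50 after each gene start, 300 in all), 29 of the 37 were matched, and IRF7, OAS2, OASL, IFIT2, MX2, TRIM22, USP18 and IFITM2 were not. The core of the interferon-stimulated response element, searched on both strands as GAAA, any 2 bases and GAAA, was in 19 of the 29 promoters (65.5%) and in 1195 of 27305 genes of the table (4.38%). The core of the gamma-activated site, searched as TTCNNNGAA on both strands, was in 9 of 29 (31%) against 2560 of 27305 (9.38%). Matches of these motifs overlapped in BST2, IFI27, IFITM1 and MX1. The windows below belong to members on which the results turn, written 5′ to 3′ along the gene with 15 bases on either side of the outermost match. IFIT3, MX1 and PARP9 have further gene starts, whose windows are not shown. Those of IFIT3 and MX1 include further matches of the response element core. Capitals mark the core of the response element, which reads TTTC, 2 bases and TTTC where it lies on the opposite strand, and for IRF9 and IRF1 the core of the gamma-activated site.
IFIT1, chr10:89392492-89392544, + strand: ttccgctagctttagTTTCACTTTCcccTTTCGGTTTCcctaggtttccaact
IFIT3, chr10:89327826-89327899, + strand: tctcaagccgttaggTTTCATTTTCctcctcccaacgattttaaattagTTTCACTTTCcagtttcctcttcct
ISG15, chr1:1013369-1013414, + strand: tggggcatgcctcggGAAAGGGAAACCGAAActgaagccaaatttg
MX1, chr21:41431839-41431878, + strand: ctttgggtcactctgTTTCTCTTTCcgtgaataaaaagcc
PARP9, chr3:122564317-122564356, - strand: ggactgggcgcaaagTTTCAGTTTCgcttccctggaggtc
SAMD9, chr7:93118091-93118130, - strand: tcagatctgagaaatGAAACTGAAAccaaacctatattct
IFITM3, chr11:320871-320927, - strand: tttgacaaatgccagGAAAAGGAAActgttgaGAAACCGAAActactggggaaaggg
BST2, chr19:17405730-17405775, - strand: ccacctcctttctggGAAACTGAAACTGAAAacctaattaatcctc
IRF1, chr5:132490874-132490912, - strand: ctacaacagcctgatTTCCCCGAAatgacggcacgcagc
IRF9, chr14:24161187-24161225, + strand: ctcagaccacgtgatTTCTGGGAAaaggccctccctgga
The response element core was present alike in genes that were highest in 0.1% FBS (PARP9, and IFIT3 by its brightest probe only), highest in MEM (ISG15, SAMD9, IFITM3) and lowest in MEM (BST2). STAT2, IRF9 and IFI16 held no match of it in the promoter window. Of the members called among the 5 conditions other than MEM, 11 of 18 with a matched promoter held the core, and of the remaining members 8 of 11 did.

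Members differed between culture conditions, and not all in the same direction. Over the 6 conditions, 28 of 37 members differed (limma F test), beside 30.1% of all probes and 57.6% of the 24279 probes above background on at least 2 arrays. Over the 5 conditions without MEM, 22 differed, beside 19.9% of all probes and 38.3% of those above background. By condition means, 14 members were highest in 0.1% FBS, 12 in MEM, 6 in DMEM, 2 in HS, 2 at 50% confluence and 1 in RPMI-1640. The lowest mean was at 50% confluence for 14 members, in HS for 9, in MEM for 7, in DMEM for 3, in 0.1% FBS for 3 and in RPMI-1640 for 1.

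**Figure D1:**
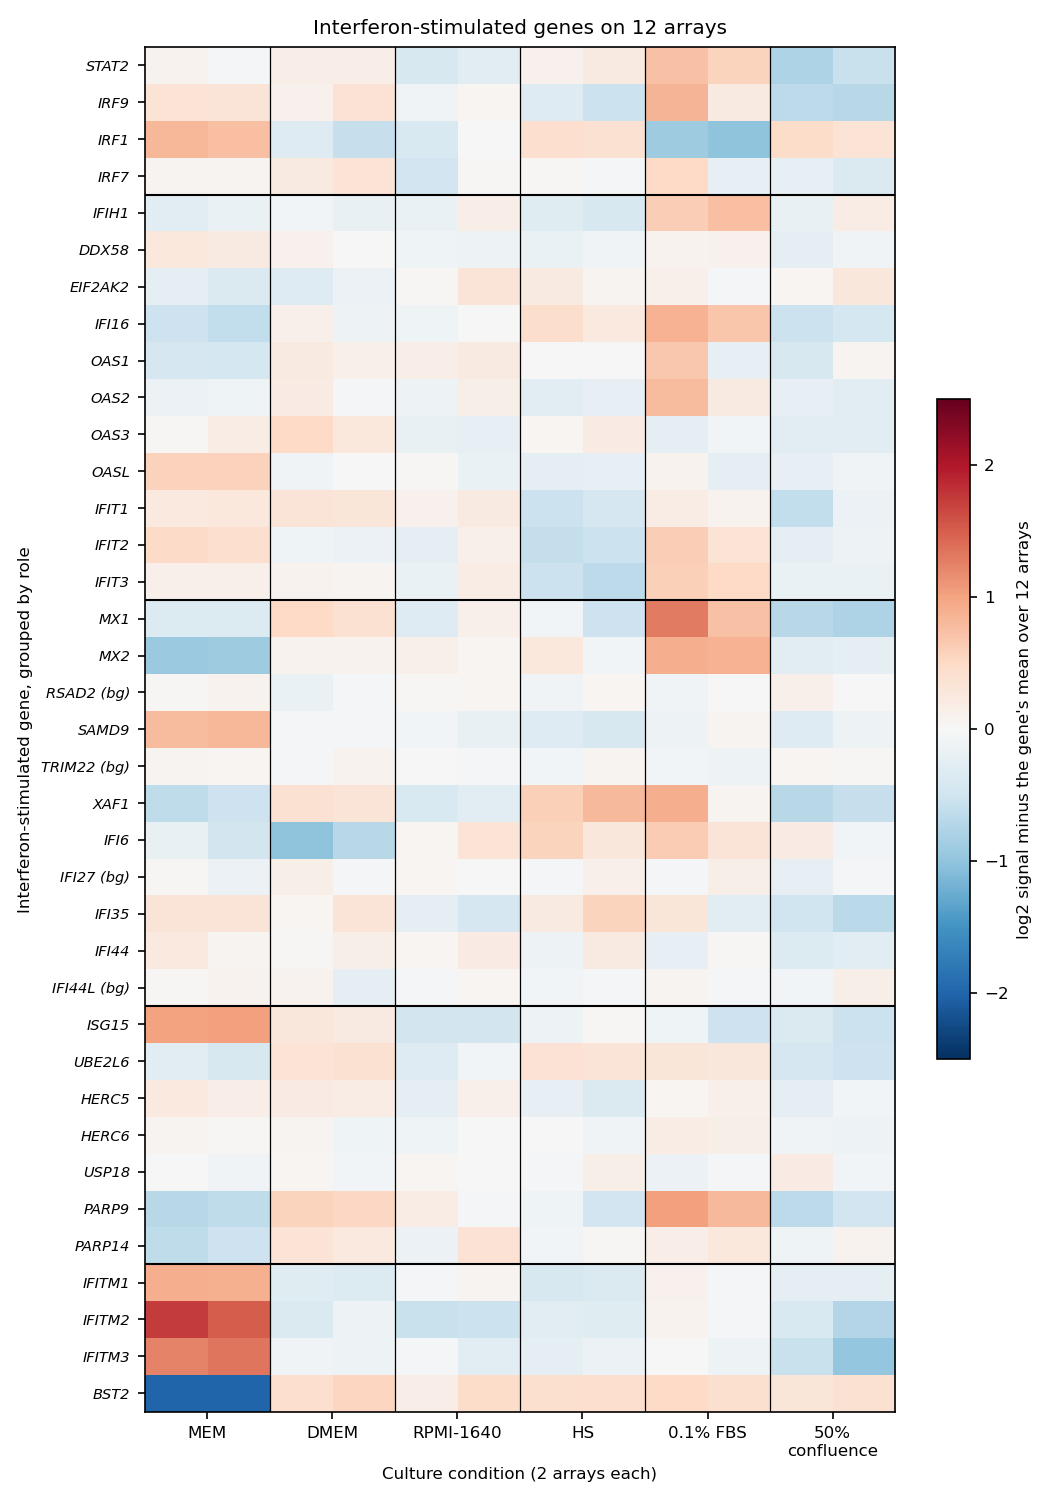
Each row is an interferon-stimulated gene, each column an array, and the color is the log2 signal minus the mean of that gene over the 12 arrays (bg marks genes above background on no array). IFITM1, IFITM2, IFITM3, ISG15 and SAMD9 stand high and BST2 low in the 2 MEM columns, while MX1, MX2, PARP9, IFI16 and STAT2 stand high in the 2 columns of 0.1% FBS.

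STAT2 and IRF9, subunits of ISGF3, had their highest means in 0.1% FBS. Signals of STAT2 stood at 9.60 and 9.49 in MEM, 9.68 and 9.68 in DMEM, 9.12 and 9.25 in RPMI-1640, 9.62 and 9.74 in HS, 10.26 and 10.07 in 0.1% FBS, and 8.74 and 8.97 at 50% confluence. Both arrays of 0.1% FBS were above the 10 others and both at 50% confluence below them. STAT2 was 2.47-fold higher in 0.1% FBS than at 50% confluence (log2 difference 1.31, standard error 0.11, adjusted p = 1.01e-06). IRF9 supplies the DNA-binding part of the complex. IRF9 gave 9.0 and 8.98 in MEM, 8.76 and 9.01 in DMEM, 8.56 and 8.70 in RPMI-1640, 8.33 and 8.11 in HS, 9.49 and 8.87 in 0.1% FBS, and 7.99 and 7.96 at 50% confluence. The arrays of 0.1% FBS had an SD of 0.44 between them, and the log2 difference from 50% confluence was 1.21, standard error 0.16, adjusted p = 8.13e-05. The second of these arrays was below both of MEM, and IRF9 was not called between 0.1% FBS and MEM or DMEM.

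IRF1 ran the other way. This factor is induced by interferon gamma and binds elements like that of ISGF3. IRF1 read 9.11 and 9.04 in MEM, 7.97 and 7.71 in DMEM, 7.90 and 8.30 in RPMI-1640, 8.71 and 8.66 in HS, 7.41 and 7.29 in 0.1% FBS, and 8.75 and 8.64 at 50% confluence. The 2 arrays of 0.1% FBS were the lowest of the 12 and those of MEM the highest, with no overlap. The level in 0.1% FBS was 2.54-fold lower than at 50% confluence (log2 difference -1.35, standard error 0.13, adjusted p = 4.1e-06) and 2.53-fold lower than in HS (log2 difference -1.34, standard error 0.13, adjusted p = 6.27e-06). IRF7, which drives the interferon alpha genes, passed neither F test (adjusted p = 0.156 over 6 conditions). The log2 signal of IRF7 was 8.62 and 8.61 in MEM, 8.76 and 8.89 in DMEM, 8.06 and 8.57 in RPMI-1640, 8.58 and 8.49 in HS, 9.04 and 8.33 in 0.1% FBS, and 8.33 and 8.18 at 50% confluence. Its arrays overlapped between most conditions, and those of 0.1% FBS had an SD of 0.50 between them.

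Among the sensors of foreign nucleic acids, IFIH1 and IFI16 were highest in 0.1% FBS. IFIH1 (MDA5) detects long double-stranded RNA. For IFIH1 the arrays read 7.43 and 7.53 in MEM, 7.62 and 7.51 in DMEM, 7.53 and 7.86 in RPMI-1640, 7.39 and 7.30 in HS, 8.31 and 8.45 in 0.1% FBS, and 7.51 and 7.87 at 50% confluence. The 10 arrays outside 0.1% FBS spanned 7.30 to 7.87 and overlapped one another. IFI16 senses DNA in the nucleus and cytoplasm. In IFI16, signals were 9.74 and 9.63 in MEM, 10.39 and 10.13 in DMEM, 10.15 and 10.26 in RPMI-1640, 10.70 and 10.50 in HS, 11.12 and 10.95 in 0.1% FBS, and 9.72 and 9.82 at 50% confluence. Its log2 difference from 50% confluence was 1.27, standard error 0.11, adjusted p = 2.55e-06, and from DMEM 0.78, standard error 0.11, adjusted p = 0.000275. DDX58 (RIG-I) was above background on 10 arrays, with 7.31 to 7.35 in MEM and 6.85 to 7.20 elsewhere. EIF2AK2, the kinase PKR that halts translation, was lower in MEM than at 50% confluence (log2 difference -0.46, standard error 0.12, adjusted p = 0.0132) but was not called among the 5 other conditions.

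The 3 oligoadenylate synthetases, which make the activator of RNase L and lie next to each other in the genome, did not share a pattern. Signals of OAS1 stood at 6.94 and 6.93 in MEM, 7.58 and 7.50 in DMEM, 7.54 and 7.58 in RPMI-1640, 7.35 and 7.36 in HS, 8.03 and 7.17 in 0.1% FBS, and 6.97 and 7.43 at 50% confluence. OAS1 was not called over the 6 conditions (adjusted p = 0.0883), and its arrays of 0.1% FBS had an SD of 0.61 between them. Another OAS1 probe, above background on 9 arrays, was called where the brightest was not, among other comparisons higher in 0.1% FBS than at 50% confluence by 0.66 on the log2 scale (0.40 by the brightest). OAS2 gave 6.94 and 6.99 in MEM, 7.29 and 7.05 in DMEM, 6.96 and 7.23 in RPMI-1640, 6.79 and 6.88 in HS, 7.88 and 7.31 in 0.1% FBS, and 6.87 and 6.81 at 50% confluence. OAS2 was at background on both arrays in HS and at 50% confluence and was at least 1.56-fold higher in 0.1% FBS than at 50% confluence (adjusted p = 0.00326). OAS3 read 7.66 and 7.81 in MEM, 8.11 and 7.89 in DMEM, 7.43 and 7.43 in RPMI-1640, 7.68 and 7.84 in HS, 7.40 and 7.56 in 0.1% FBS, and 7.34 and 7.36 at 50% confluence. OAS3 was highest in DMEM, above 50% confluence (log2 difference 0.65, standard error 0.11, adjusted p = 0.001), and 0.1% FBS was below DMEM (log2 difference -0.52, standard error 0.11, adjusted p = 0.00334). OASL, a relative without synthetase activity, read 7.48 on both MEM arrays and was above background on only 2 of the other 10.

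IFIT1, IFIT2 and IFIT3 form a cluster of neighboring genes whose proteins bind viral RNA, and all 3 were low in HS. The log2 signal of IFIT1 was 8.16 and 8.18 in MEM, 8.25 and 8.23 in DMEM, 8.02 and 8.14 in RPMI-1640, 7.38 and 7.51 in HS, 8.10 and 8.01 in 0.1% FBS, and 7.30 and 7.77 at 50% confluence. The 2 arrays of HS and the first at 50% confluence were the lowest, and in HS the level was 1.74-fold lower than in DMEM (log2 difference -0.80, standard error 0.12, adjusted p = 0.00164). For IFIT2 the arrays read 8.72 and 8.66 in MEM, 8.14 and 8.10 in DMEM, 8.0 and 8.37 in RPMI-1640, 7.64 and 7.71 in HS, 8.85 and 8.59 in 0.1% FBS, and 7.99 and 8.12 at 50% confluence. The arrays of MEM and of 0.1% FBS were the 4 highest. In IFIT3, signals were 8.45 and 8.43 in MEM, 8.39 and 8.38 in DMEM, 8.15 and 8.51 in RPMI-1640, 7.77 and 7.66 in HS, 8.91 and 8.82 in 0.1% FBS, and 8.15 and 8.14 at 50% confluence. The 2 arrays of HS were the lowest and the 2 of 0.1% FBS the highest, and 0.1% FBS exceeded HS (log2 difference 1.15, standard error 0.11, adjusted p = 6.51e-06). IFIT3 was the 1 gene whose probes were called in opposite directions among the 9 members with at least 2 probes above background. Its second bright probe was higher in MEM than in 0.1% FBS by 0.79 and lower in 0.1% FBS than in DMEM by 0.46 on the log2 scale, where the brightest probe gave -0.43 and 0.48. Both probes were called higher in 0.1% FBS than in HS.

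**Figure D2:**
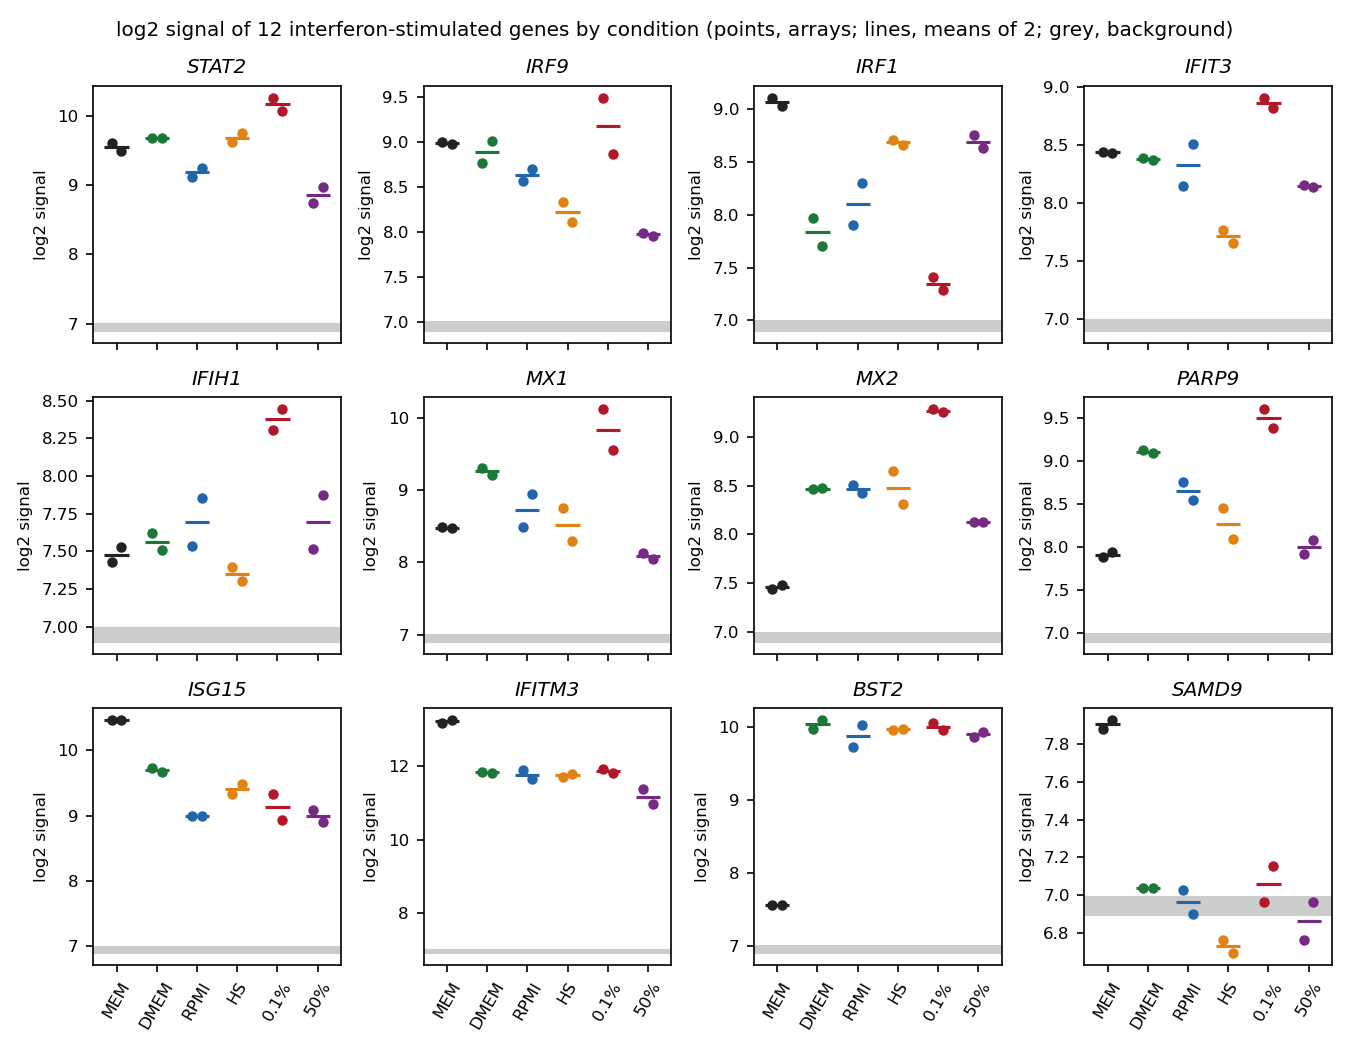
Points are the log2 signals of 12 members on each array, lines the means of 2 arrays and the grey band the background of the 12 arrays, with a separate axis for each gene. STAT2, IFIT3, IFIH1, MX1, MX2 and PARP9 peak in 0.1% FBS, where IRF1 is lowest, and ISG15, IFITM3 and SAMD9 peak in MEM, where BST2 is lowest.

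MX1 and MX2 are adjacent genes for dynamin-like GTPases that block incoming viruses. Signals of MX1 stood at 8.48 and 8.48 in MEM, 9.31 and 9.21 in DMEM, 8.49 and 8.95 in RPMI-1640, 8.75 and 8.30 in HS, 10.13 and 9.55 in 0.1% FBS, and 8.13 and 8.05 at 50% confluence. MX1 was 3.36-fold higher in 0.1% FBS than at 50% confluence (log2 difference 1.75, standard error 0.18, adjusted p = 1.04e-05), the largest increase among members in that comparison, and second highest in DMEM. MX2 gave 7.44 and 7.49 in MEM, 8.46 and 8.48 in DMEM, 8.50 and 8.42 in RPMI-1640, 8.65 and 8.31 in HS, 9.29 and 9.25 in 0.1% FBS, and 8.12 and 8.13 at 50% confluence. For MX2 the arrays of MEM were the lowest, 3.49-fold below those of 0.1% FBS (log2 difference -1.80, standard error 0.11, adjusted p = 3.27e-09), while MX1 in MEM lay within the range of the other arrays.

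XAF1, IFI6 and IFI35 also differed among the 5 conditions without MEM. XAF1, a partner of the apoptosis inhibitor XIAP, was highest in HS on average. XAF1 read 7.55 and 7.65 in MEM, 8.56 and 8.49 in DMEM, 7.79 and 7.89 in RPMI-1640, 8.78 and 8.98 in HS, 9.07 and 8.25 in 0.1% FBS, and 7.48 and 7.59 at 50% confluence. Its arrays of 0.1% FBS had an SD of 0.58 between them and enclosed those of DMEM. A second XAF1 probe, above background on 7 arrays, was not called against 50% confluence in 0.1% FBS (0.19, and 1.13 by the brightest) or DMEM (0.16, and 0.99). That probe was called higher in HS than at 50% confluence (0.52, and 1.35 by the brightest). IFI6 encodes a small membrane protein that restrains flaviviruses. The log2 signal of IFI6 was 10.08 and 9.82 in MEM, 9.26 and 9.58 in DMEM, 10.32 and 10.63 in RPMI-1640, 10.84 and 10.56 in HS, 10.92 and 10.60 in 0.1% FBS, and 10.48 and 10.21 at 50% confluence. DMEM held the 2 lowest arrays, and 0.1% FBS was 2.52-fold above it (log2 difference 1.34, standard error 0.16, adjusted p = 4.35e-05). By its brightest probe, the low level of IFI6 in DMEM was opposite in direction to MX1. MX1 was higher in DMEM than at 50% confluence (log2 difference 1.17, standard error 0.18, adjusted p = 0.000694), where IFI6 was lower (log2 difference -0.93, standard error 0.16, adjusted p = 0.00129). A second IFI6 probe, above background on all 12 arrays, was called in neither of these pairs with DMEM. It gave 0.27 for 0.1% FBS minus DMEM and -0.043 for DMEM minus 50% confluence. For IFI35 the arrays read 9.39 and 9.38 in MEM, 9.12 and 9.39 in DMEM, 8.84 and 8.64 in RPMI-1640, 9.30 and 9.61 in HS, 9.37 and 8.78 in 0.1% FBS, and 8.56 and 8.38 at 50% confluence. IFI35 was lowest at 50% confluence and higher in HS (log2 difference 0.98, standard error 0.16, adjusted p = 0.00118). SAMD9, an antiviral protein, read 7.88 and 7.93 in MEM and 6.69 to 7.16 on the other arrays, near background. IFI44 was not called over the 6 conditions (adjusted p = 0.0517), and RSAD2, TRIM22, IFI27 and IFI44L ranged from 6.31 to 6.93 without exceeding background.

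The ISG15 system couples a ubiquitin-like protein to other proteins through UBE2L6 and HERC5, and its genes did not move together. In ISG15, signals were 10.46 and 10.47 in MEM, 9.73 and 9.67 in DMEM, 9.0 and 8.99 in RPMI-1640, 9.33 and 9.49 in HS, 9.34 and 8.94 in 0.1% FBS, and 9.09 and 8.91 at 50% confluence. ISG15 was highest in MEM, 2.76-fold above 50% confluence (log2 difference 1.47, standard error 0.12, adjusted p = 2.15e-07), and among the other conditions highest in DMEM. Signals of UBE2L6 stood at 10.06 and 9.92 in MEM, 10.65 and 10.70 in DMEM, 10.00 and 10.25 in RPMI-1640, 10.68 and 10.64 in HS, 10.62 and 10.60 in 0.1% FBS, and 9.89 and 9.79 at 50% confluence. The conjugating enzyme UBE2L6 was thus low in MEM, where ISG15 was high, and its arrays of DMEM, HS and 0.1% FBS were above the 6 others. HERC5 gave 9.52 and 9.44 in MEM, 9.48 and 9.45 in DMEM, 9.05 and 9.39 in RPMI-1640, 9.06 and 8.91 in HS, 9.31 and 9.41 in 0.1% FBS, and 9.04 and 9.19 at 50% confluence. HERC5, the ligase, spanned 8.91 to 9.52. Its neighbor HERC6 (7.59 to 7.91) and USP18 (6.98 to 7.34), which removes ISG15 from proteins and dampens the receptor, were not called in either F test.

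PARP9 and PARP14 carry macrodomains that recognize ADP-ribose. PARP9 read 7.89 and 7.94 in MEM, 9.13 and 9.09 in DMEM, 8.76 and 8.54 in RPMI-1640, 8.46 and 8.09 in HS, 9.61 and 9.39 in 0.1% FBS, and 7.93 and 8.09 at 50% confluence. PARP9 was 2.81-fold higher in 0.1% FBS than at 50% confluence (log2 difference 1.49, standard error 0.13, adjusted p = 1.4e-06) and second highest in DMEM. A second PARP9 probe, above background on all 12 arrays, was also called higher in 0.1% FBS than at 50% confluence (1.12). It was not called for DMEM minus 50% confluence (0.29, and 1.10 by the brightest) or DMEM minus RPMI-1640 (-0.030, and 0.46). PARP14 read 7.27 and 7.38 in MEM and 7.77 to 8.27 on the other 10 arrays, and was not called among the 5 other conditions (adjusted p = 0.325).

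The membrane proteins carried the widest differences of the set, nearly all of them between MEM and the rest. IFITM1, IFITM2 and IFITM3 are adjacent genes whose products stop viruses from fusing with the cell. The log2 signal of IFITM2 was 13.55 and 13.32 in MEM, 11.44 and 11.67 in DMEM, 11.24 and 11.26 in RPMI-1640, 11.52 and 11.50 in HS, 11.88 and 11.74 in 0.1% FBS, and 11.42 and 11.07 at 50% confluence. For IFITM3 the arrays read 13.18 and 13.27 in MEM, 11.85 and 11.82 in DMEM, 11.89 and 11.65 in RPMI-1640, 11.72 and 11.78 in HS, 11.93 and 11.81 in 0.1% FBS, and 11.38 and 10.96 at 50% confluence. In each, both MEM arrays exceeded the 10 others by more than 1 unit. In IFITM1, signals were 7.98 and 7.96 in MEM, 6.76 and 6.73 in DMEM, 7.02 and 7.14 in RPMI-1640, 6.66 and 6.70 in HS, 7.18 and 7.02 in 0.1% FBS, and 6.81 and 6.83 at 50% confluence. IFITM1 was at background on both arrays of DMEM, HS and 50% confluence, so that MEM was at least 2.01-fold above DMEM and at least 2.02-fold above 50% confluence (adjusted p = 7.23e-08 and 1.68e-07). The 3 genes are close copies, and cross-hybridization of their probes was not tested. BST2 (tetherin), which holds budding viruses at the cell surface, went the opposite way. Signals of BST2 stood at 7.56 and 7.56 in MEM, 9.98 and 10.10 in DMEM, 9.73 and 10.02 in RPMI-1640, 9.96 and 9.97 in HS, 10.05 and 9.95 in 0.1% FBS, and 9.86 and 9.94 at 50% confluence. In MEM it was 5.05-fold lower than at 50% confluence (log2 difference -2.34, standard error 0.10, adjusted p = 2.4e-10), while the other 10 arrays spanned 9.73 to 10.10 and passed no test among themselves (adjusted p = 0.727).

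Comparisons with MEM addressed the effects of density, serum and medium, and all 5 of them share the 2 MEM arrays. The markers PLAU, KRT8 and SOX10 differed between those arrays and the other 10. A difference in the cells themselves therefore cannot be told apart from density, serum or medium in these comparisons. Not every marker of the same lists separated the MEM arrays. CD44 had a mean of 12.45 in MEM and of 12.02 to 13.38 elsewhere. TYR had 7.83 in MEM and 6.89 to 9.44 elsewhere, and CAPN3 8.80 and 7.61 to 10.91. For density, 16 members were higher and 4 lower in MEM at 90% than at 50% confluence, beside 10.3% higher and 9.42% lower of all probes, and 19.7% and 18% of those above background. The median difference of the members was 0.29 and that of all probes -0.0085. The largest were those of IFITM2 (2.19), IFITM3 (2.06) and BST2 (-2.34). For serum concentration, 7 members were higher and 14 lower in MEM than in 0.1% FBS, beside 11.5% and 10.9% of all probes, and 21.8% and 20.6% of those above background, with BST2 (-2.44), MX2 (-1.80) and PARP9 (-1.58) the lowest. For the kind of serum, 13 were higher and 8 lower in MEM than in HS, beside 11.5% and 10.4% of all probes, and 21.8% and 19.7% of those above background. The median difference of the members was -0.077 against 0.1% FBS and 0.076 against HS.

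Between media, 23 members differed in the F test over the 3 media, beside 23.7% of all probes and 45.1% of those above background. In DMEM 9 were higher and 9 lower than in MEM (10% and 10.9% of all probes, 18.9% and 20.6% of those above background). In RPMI-1640 8 were higher and 11 lower than in MEM (9.42% and 9.82%, and 17.9% and 18.6%). DMEM and RPMI-1640, which by their labels differ in medium alone, differed in 8 members, 6 higher and 2 lower in DMEM (2.35% and 2.98% of all probes, 4.5% and 5.73% of those above background). Of the 8 genes that this line expresses strongly, 5 were lower and 0 higher in DMEM, with a median of -0.55. Of the 13 melanocyte and neural crest markers, 1 was higher and 0 lower. The part of these markers in the difference was not tested. ISG15 (log2 difference 0.70, standard error 0.12, adjusted p = 0.00248) was higher in DMEM. IFI6 (log2 difference -1.05, standard error 0.16, adjusted p = 0.000788) was lower, while its second probe gave -0.42 and was not called. The calls of ISG15 and IFI6 held in every alternative apart from the 2-fold limit and the methods' t-test. The other 6 calls (XAF1, OAS3, UBE2L6, STAT2, PARP9 and IFITM1) were lost in at least 1. The count fell to 3 without the first array of DMEM or of RPMI-1640, and to 4 and 5 without the second.

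**Figure D3:**
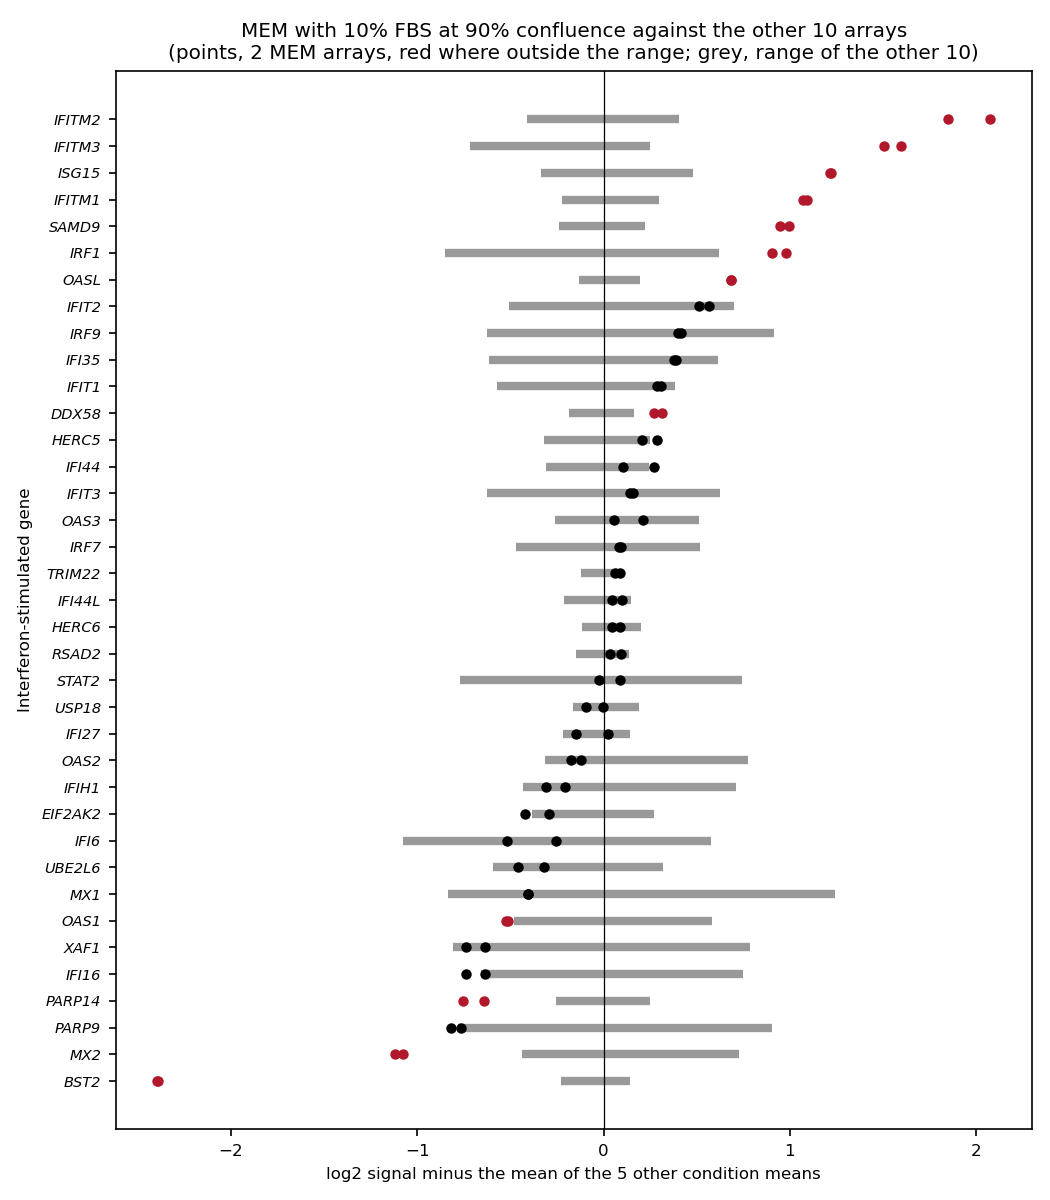
Points are the 2 MEM arrays of each member and grey bars the range of the other 10 arrays, all as log2 signal minus the mean of the 5 other condition means. IFITM2 lies farthest above the other arrays and BST2 farthest below.

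Both MEM arrays were above the other 10 in 8 members (IRF1, DDX58, OASL, SAMD9, ISG15, IFITM1, IFITM2 and IFITM3), where 11% of all probes and 19.4% of those above background did the same. They were below in 4 (OAS1, MX2, PARP14 and BST2), beside 9.83% and 16.8%. The share of members outside the range of the other arrays was thus near that of the probes above background. The markers PLAU and KRT8 (high in MEM) and SOX10 (low in MEM) moved with the same 2 arrays, unlike CD44, TYR and CAPN3. The part of the markers in these differences was not tested.

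Without the MEM arrays, more members were highest in 0.1% FBS than in any other condition. Both of its arrays were above the 8 others in 11 members (STAT2, IFIH1, IFI16, OAS2, IFIT2, IFIT3, MX1, MX2, HERC6, PARP9 and IFITM2), beside 6.06% of all probes and 9.23% of those above background, and below in 2, IRF1 and TRIM22 (5.97% and 9.35%), TRIM22 being at background throughout. Against 50% confluence, 16 members were higher and 1, IRF1, lower in 0.1% FBS, beside 5.43% and 5.39% of all probes, and 10.4% in each direction of those above background. The median difference of the members was 0.40 and that of all probes -0.0027. Of these 17 calls, 13 held in every alternative apart from the 2-fold limit and the methods' t-test (STAT2, IRF9, IRF1, IFIH1, IFI16, IFIT2, IFIT3, MX1, MX2, XAF1, UBE2L6, PARP9 and IFITM3). Against HS, 14 were higher and 1 lower (6.03% and 5.52% of all probes, 11.5% and 10.4% of those above background), with a median of 0.22. Against DMEM, 9 were higher and 3 lower (6.05% and 5.82%, 11.5% and 11.1%), with a median of 0.048. Against RPMI-1640, 12 were higher and 1 lower (4.14% and 4.38%, 8.01% and 8.5%), with a median of 0.14. These comparisons share the arrays of 0.1% FBS and differ in the second factor, which is density, serum or medium, so that low serum and that factor cannot be told apart in any of these 4. The summed melanocyte and neural crest signal was highest in the same 2 arrays (10856 to 12856), and its part in these differences was not tested. Without the first array of DMEM the count against DMEM fell from 12 to 7, and without the first array of RPMI-1640 that against RPMI-1640 fell from 13 to 6.

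**Figure D4:**
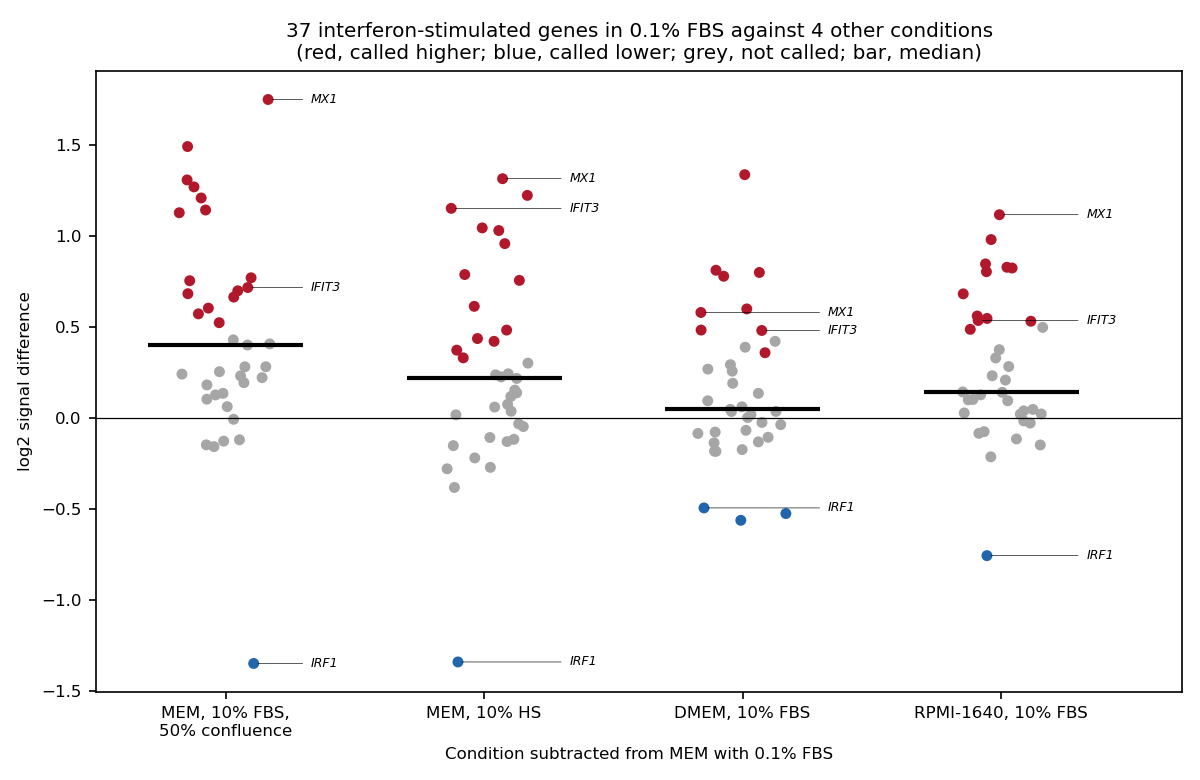
Each point is a member, the vertical axis is its log2 signal in 0.1% FBS minus that in the condition named below, and bars are medians over the 37 members. The medians are 0.40, 0.22, 0.048 and 0.14, and IRF1 is called lower in all 4 comparisons.

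The other pairs set 50% confluence low and HS low for different members. In DMEM 12 members were higher and 2 lower than at 50% confluence (4.09% and 4.26% of all probes, 7.82% and 8.18% of those above background), with a median of 0.31 beside 0.0015 for all probes. Of the 13 melanocyte and neural crest markers, 6 were higher and 0 lower in the same pair, with a median of 0.27, and their part in the difference was not tested. In HS 9 were higher and 1, IFIT3 by its brightest probe only, lower than at 50% confluence (4.55% and 4.93%, 8.58% and 9.49%). Without the second array at 50% confluence that count fell from 10 to 5. The second bright probe of IFIT3 gave 0.12 in this pair, where the brightest gave -0.43, and was not called. Against DMEM, HS was higher in 2 members, IFI6 and IRF1, and lower in 7 (2.38% and 2.66%, 4.56% and 5.14%), among them the 3 IFIT genes, MX1 and, by its brightest probe only, PARP9. The same markers were higher for 1 and lower for 6 of 13 in that pair. The count fell from 9 to 5 without either array of DMEM or the second of HS. Against RPMI-1640, 7 were higher and 4 lower in HS (3.64% and 4.82%, 6.94% and 9.27%), and 6 in all without either array of RPMI-1640. RPMI-1640 and 50% confluence differed in 0 members by limma (0.121% and 0.0995% of all probes, 0.235% and 0.194% of those above background), while 12 members had an unadjusted p under 0.05 and the smallest adjusted p was 0.0501. The methods' t-test called 0 there as well, and limma called 1 without the second array of either condition.

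**Figure D5:**
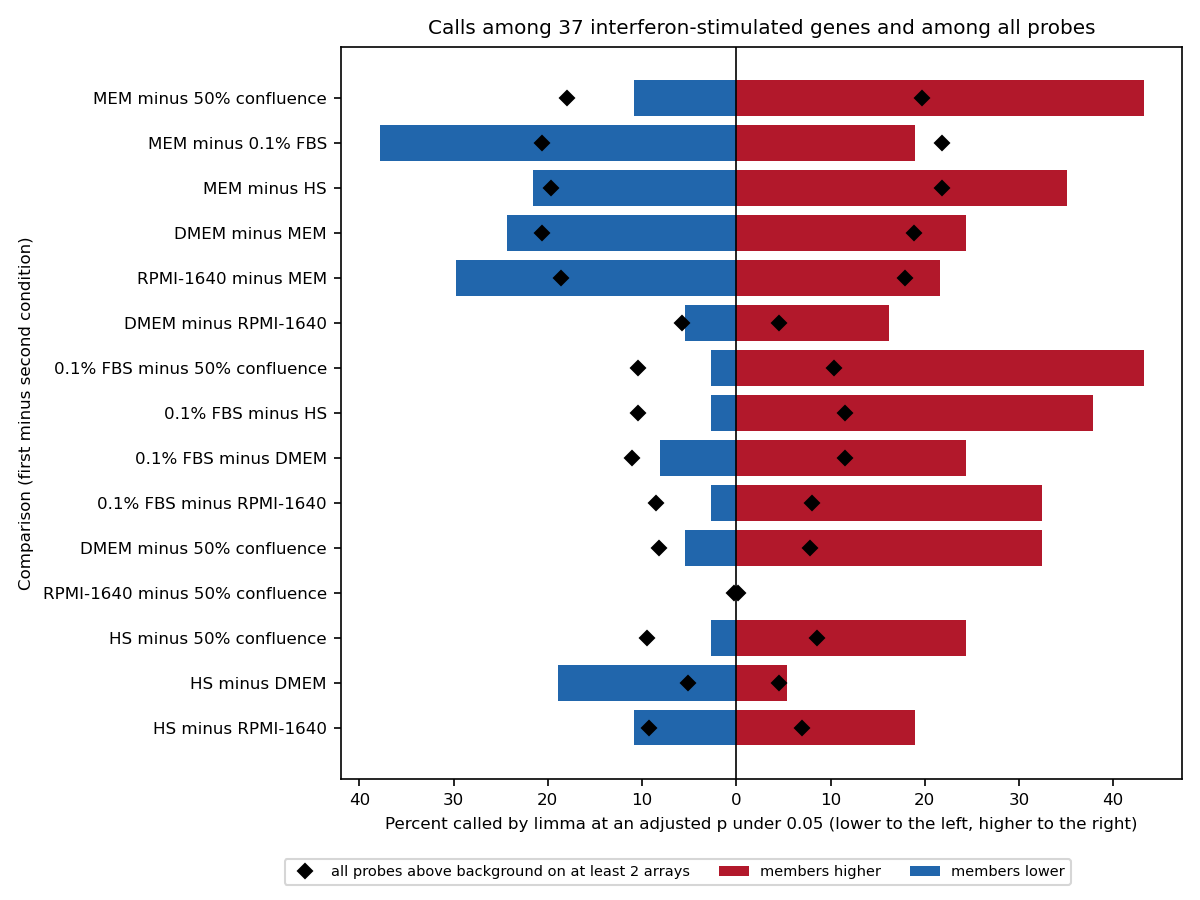
Bars give the percent of the 37 members called higher (right) or lower (left) in the first condition of each comparison, and diamonds the percent of all 24279 probes above background on at least 2 arrays. The bars for higher calls reach past the diamonds in 0.1% FBS minus 50% confluence (16 members), while RPMI-1640 minus 50% confluence has 0 calls.

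The rest of the pathway was read from lists of its ligands, receptors, signal proteins and other targets. No ligand was called in the F tests. Of 9 interferon genes measured, 8 (IFNA2, IFNB1, IFNE, IFNG, IFNK, IFNL1, IFNL2 and IFNL3) were above background on no array and IFNA1 on 1. Of 6 receptor chains, 4 differed over the 6 conditions and 3 over the 5 without MEM, beside 57.6% and 38.3% of the probes above background. IFNAR2 read 8.22 and 8.09 in MEM and 8.62 to 9.32 elsewhere. IFNGR1, the ligand-binding chain for interferon gamma, read 9.50 and 9.32 in 0.1% FBS and 8.43 to 9.07 elsewhere, and the interferon lambda chain IFNLR1 was at background. Of 11 signal proteins and their inhibitors, 7 differed among the 5 conditions without MEM (38.3% of the probes above background). STAT3 was among them, at 8.47 to 9.30 on the arrays of these conditions. In MEM, which that test does not compare, STAT3 read 10.27 and 10.21. IRF3, which switches on the interferon beta gene, was lowest in 0.1% FBS at 7.23 and 7.26, and 7.72 to 8.84 on the other arrays.

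Among 32 further induced genes, 14 differed over the 5 conditions without MEM, beside 38.3% of the probes above background. In 0.1% FBS against 50% confluence, 8 of them were higher and 1, ZC3HAV1, was lower, beside 10.4% in each direction of the probes above background. TDRD7 (log2 difference 1.32, standard error 0.16, adjusted p = 4.44e-05), HELZ2 (log2 difference 1.10, standard error 0.16, adjusted p = 0.000225), ISG20 (log2 difference 1.03, standard error 0.19, adjusted p = 0.00194) and LGALS3BP (log2 difference 0.95, standard error 0.12, adjusted p = 6.83e-05) had the largest increases. Between the arrays of 0.1% FBS the SD was 0.64 for ISG20 and 0.43 for TDRD7. In MEM against 50% confluence, 8 were higher and 5 lower, beside 19.7% and 18%. Of 12 targets of interferon gamma, GBP2, a guanylate-binding protein, was higher in 0.1% FBS than at 50% confluence (log2 difference 1.62, standard error 0.19, adjusted p = 2.59e-05), as was WARS (log2 difference 1.49, standard error 0.24, adjusted p = 0.000624), and IFI30 was lower (log2 difference -0.59, standard error 0.10, adjusted p = 0.000699). The arrays of 0.1% FBS had an SD of 0.85 between them for WARS and 0.33 for GBP2. CXCL9, CXCL10, CXCL11, IDO1 and GBP5 were above background on no array. Of 16 genes of MHC class I and peptide loading, 1 was higher and 1 lower in 0.1% FBS than at 50% confluence (10.4% in each direction of the probes above background), and 5 were higher and 2 lower in MEM than at 50% confluence (19.7% and 18%).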

How the data were processed

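Total RNA of cells in 6 culture conditions was labeled as cRNA and hybridized to 12 Illumina HumanHT-12 arrays, 2 per condition. Per the labels and the study's methods, the authors exported signals with BeadStudio, named without a version in the submitters' processing notes, and normalized them by quantiles. The deposited table of the whole series holds log2 values and was used for every result. The deposited linear intensity table, already quantile normalized, and the deposited per-sample values on the log2 scale served as alternatives. Scan slide and batch are not given in the sources used here.

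The 47231 probes (3270 without a gene name) were fitted without further normalization in limma 3.58.1 (R 4.3.3) with 1 mean per condition (6 residual degrees of freedom, 8.96 prior), using lmFit, eBayes and Benjamini-Hochberg adjustment over all probes at 0.05. Background was taken per array as the level that 95% of 463 probes for olfactory receptors did not exceed. A fold against a condition with both arrays at background is a lower bound, the mean of the brighter condition over that of the background or the probe, whichever was higher on each array. With 2 arrays per condition, the number of arrays limits the precision. The steps were tested on simulated data with known changes. Figures were drawn in Python 3.11.15 with matplotlib 3.10.9, and promoters came from RefSeq (GRCh38.p14).

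The members, pathway lists and marker lists were chosen with earlier results of these data known. Values on every array are given for the 12 members with the widest range of condition means, for all members called among the 5 conditions without MEM, and for STAT2, IRF1, IRF7, IRF9, ISG15, MX1, IFIT1 and OAS1. Other pathway genes are named up to 4 called per list, with ligands and receptors. The alternatives were the other tables, scaling to the 75th percentile, normexp with an offset of 50, a filter for background on at least 2 arrays, only the groups compared, trend and robust settings, the mean of a gene's probes, a replicate block, a 2-fold limit, leaving out each array or both MEM arrays, and the methods' t-test at P of 0.001 and after Benjamini-Hochberg adjustment. Pairs without MEM and the omission of both MEM arrays were chosen after the data had been seen.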

Additional observations from a re-analysis of the deposited data

How the results depend on the processing

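Of 208 calls of members over the 15 pairs, 132 held in every alternative except the 2-fold limit and the methods' t-test. All 208 held with the linear table, the per-sample values and 75th percentile scaling, 198 with normexp, 206 with the filter on dim probes, 188 with only the groups compared, 190 with trend and robust settings and 185 with the mean of probes. IFIT3, MEM minus 0.1% FBS, reversed with the mean of probes (0.14, where the brightest probe gave -0.43). Counts of called members that left the 1.5-fold range follow, and the cause was not tested unless the alternative's construction shows it. DMEM minus RPMI-1640 gave 5 without both MEM arrays, 5 with trend and robust settings and 4 with the mean of probes, and HS minus 50% confluence 6 with trend and robust settings. RPMI-1640 minus 50% confluence gave 1 with the filter, normexp, only the groups compared and the replicate block, against 0. With the 2-fold limit, by construction fewer, MEM gave 7 against 50% confluence, 10 against 0.1% FBS, 9 against HS, 7 against DMEM and 4 against RPMI-1640. It gave 8 in 0.1% FBS minus 50% confluence, 6 minus HS, 1 minus DMEM and 1 minus RPMI-1640, 2 in DMEM minus 50% confluence, and 1 each in DMEM minus RPMI-1640, HS minus 50% confluence, HS minus DMEM and HS minus RPMI-1640. The methods' t-test at P of 0.001, which uses only the spread of the arrays compared, gave 13 over 6 conditions, 2 over the 5 without MEM, 7 over 3 media, 4 in MEM minus 50% confluence, 2 minus 0.1% FBS, 4 minus HS, 5 in DMEM minus MEM, 1 in RPMI-1640 minus MEM, 1 in 0.1% FBS minus 50% confluence and minus DMEM, 1 in DMEM minus 50% confluence and 0 in the rest. After Benjamini-Hochberg adjustment it gave 23 over 6 conditions, 1 over the 5 without MEM, 10 over 3 media, 1 in DMEM minus MEM, RPMI-1640 minus MEM and MEM minus HS, and 0 in the other pairs.

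Leaving out each array gave 15 to 16 in MEM minus 50% confluence, 19 to 22 minus 0.1% FBS, 17 to 21 minus HS, 15 to 18 in DMEM minus MEM, 13 to 15 in RPMI-1640 minus MEM, 3 to 5 in DMEM minus RPMI-1640, 14 to 19 in 0.1% FBS minus 50% confluence, 12 to 14 minus HS, 7 to 15 minus DMEM, 6 to 16 minus RPMI-1640, 12 to 13 in DMEM minus 50% confluence, 0 to 1 in RPMI-1640 minus 50% confluence, 5 to 9 in HS minus 50% confluence, 5 to 8 minus DMEM and 6 to 8 minus RPMI-1640. The F tests gave 26 to 31 over 6 conditions, 21 to 24 over the 5 without MEM and 19 to 21 over 3 media. A lone array was assumed to vary like the other conditions. Same-numbered arrays deviated together by correlations of -0.089 to 0.191, over 0.1 in 2 of 15 pairs of conditions, so the numbers were not taken as pairing. With the replicate block 204 calls held, with 17 members in 0.1% FBS minus 50% confluence and 19 in MEM minus 50% confluence, and the lost calls were IFIT2 in HS minus DMEM, IFITM1 in DMEM minus RPMI-1640, IRF1 in MEM minus 50% confluence and SAMD9 in 0.1% FBS minus HS. The neqc alternative was not run, since it needs detection p-values. Signals of DDX58, OAS2, OASL, SAMD9 and IFITM1 near background limit their folds.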
